A study of Mus musculus with 8 samples.

Results

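The hippocampus of mice that ran on a treadmill and ate astaxanthin (AX+ME) was compared with that of mice that ran and ate a placebo powder (ME). By label the 2 groups differ in the diet. These 2 groups hold 4 of the 8 samples of the study, 2 samples each, chosen by their labels. All animals were male C57BL/6J mice, 11 weeks old when obtained and housed singly. The study crossed mild exercise, with the running speed set from the ventilatory threshold, with diet, so that sedentary mice on placebo (SED) and sedentary mice on astaxanthin (AX) make up the other 4 samples. The powder, with or without astaxanthin from the alga Haematococcus pluvialis, made up 0.5% of the feed, and astaxanthin was 2% of its powder. The labels give 8 mice per group and do not state how they became 2 samples, so the spread behind each p-value may be only technical. Each group has 1 sample in Cy3, called replicate 1, and 1 in Cy5, called replicate 2. No array holds more than 1 sample, and all 8 arrays sit on 1 slide. The arrays of 1 group share a position on the slide, so that position and group cannot be told apart.

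Astaxanthin is a red carotenoid that quenches reactive oxygen species within membranes and is taken up with dietary fat. The hippocampus serves spatial memory and, in its dentate gyrus, makes neurons throughout adult life. Running is known to raise neurotrophins and the birth of neurons there, and the title of the series asks about leptin, the satiety hormone of fat tissue, as a product of the hippocampus under the combined treatment.

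Signals are given as a percent of the 75th percentile of the array's own signals, and differences as log2 of AX+ME over ME, taken within a dye and then averaged over both dyes. Levels of different genes were not set against each other, since each probe has its own response. The 75th percentile was 1440 and 2023 intensity units in the ME samples and 1735 and 1832 in the AX+ME samples (Cy3 first). Of 59305 spots, 72.7% and 64.0% were well above background in ME and 71.5% and 66.9% in AX+ME. Genes and unnamed transcripts were tested where the probe was well above background on all 4 arrays, which gave 25307, of which 15391 had a symbol. Of the markers of hippocampal neurons, 12 of 13 for CA pyramidal cells and 9 of 10 for dentate granule cells entered the test. Spink8, a marker of CA1 pyramidal cells, read 1020% and 1015% in ME and 839% and 829% in AX+ME. Lct, a marker of dentate granule cells, read 911% and 877% in ME and 805% and 812% in AX+ME.

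No gene passed an adjusted p of 0.05 in limma (0 of 25307, or 0%), and the smallest adjusted p was 0.141. An unadjusted p under 0.05 was reached by 2042 genes, 1277 of them higher in AX+ME (5.05%) and 765 lower (3.02%). The genes that follow are therefore given as values, with the direction seen in both dyes. At least 1.5-fold higher in AX+ME in both dyes were 68 genes and transcripts (0.269%), against 5 lower in both dyes (0.0198%) and 13 that were 1.5-fold apart in opposite directions (0.0514%). With only 2 samples a group, an exact permutation test of a single gene cannot give a two-sided p below 0.333.

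**Figure D1:**
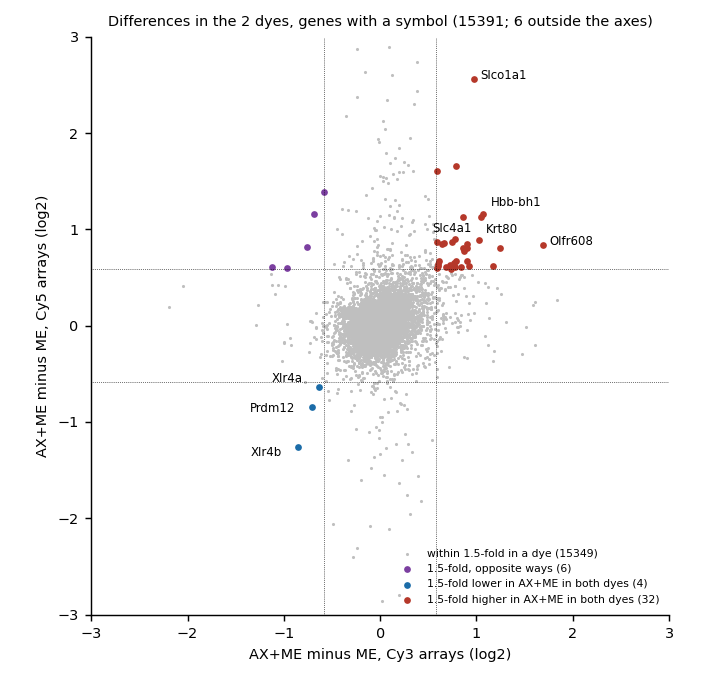
Log2 difference between AX+ME and ME on the Cy3 arrays (horizontal) and on the Cy5 arrays (vertical) for 15391 genes with a symbol, with dotted lines at 1.5-fold; 6 genes lie outside the axes. The 32 red genes lie beyond 1.5-fold on the higher side in both dyes, while 3 of 4 blue genes (the fourth is off the axes) lie beyond it on the lower side.

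The keratin Krt80, a filament protein of epithelia, had the smallest p of all genes. It read 12.1% and 12.8% in ME and 24.9% and 27.9% in AX+ME. Both AX+ME samples stood above all 6 other samples of the study, where SED read 12.5% and 13.9% and AX read 15.3% and 17.1%. The difference was 1.09 (SE 0.0527), or 2.12-fold, with an adjusted p of 0.141 in limma. Among genes with a probe from array column 70 on, the part of the slide outside an area of dim spots on the SED arrays, its adjusted p was 0.0334.

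Hbb-bh1, an embryonic beta-like globin, read 2.83% and 3.76% in ME and 5.93% and 8.42% in AX+ME. The groups did not overlap. ME was the lowest group in both dyes, with SED at 4.88% and 6.10% and AX at 3.80% and 5.38%. The difference was 1.11 (SE 0.0685, limma adjusted p = 0.141), and from column 70 on the adjusted p was 0.0334. Slc4a1, the anion exchanger of the red cell membrane, was another red cell gene 1.5-fold higher in both dyes, with 7.92% and 7.28% in ME and 12.4% and 13.1% in AX+ME. The adult globins went the other way. Hbb-bt read 310% and 305% in ME and 288% and 269.5% in AX+ME, a difference of -0.14 (SE 0.0580). Alas2, the first enzyme of heme synthesis in red cells, read 9.64% and 10.02% in ME and 7.93% and 7.36% in AX+ME. Of the 7 red cell genes tested, 2 were higher and 5 lower in both dyes, against 29.2% and 33.6% of all genes. The list's median was -0.14. Among probes from column 70 on it was 0.75, the value of Slc4a1, since fewer of the genes are tested there. Hbb-bt and Alas2, with probes in columns 8 and 39, drop out.

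Lmntd2, a gene with a lamin tail domain, read 4.06% and 3.90% in ME and 7.56% and 7.05% in AX+ME, a difference of 0.87 (SE 0.0657, limma adjusted p = 0.218). In sedentary mice it read 2.69% and 2.76% in SED against 5.17% and 4.64% in AX. Its probe lies in column 57, within the area of dim spots on the SED arrays. How much of the gap between AX and SED comes from that area was not tested. Olfr1232, an olfactory receptor, read 3.96% and 4.17% in ME and 7.39% and 7.28% in AX+ME, a difference of 0.85 (SE 0.0620). In both genes the AX+ME samples were the highest of the 8.

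Transporters and receptors filled the other places among the largest differences. Slc22a2, an organic cation transporter, read 4.94% and 4.79% in ME and 8.99% and 8.39% in AX+ME, with SED at 7.18% and 10.3%. Taar4, a trace amine receptor of the nose, read 4.03% and 3.85% in ME and 8.23% and 7.16% in AX+ME, and its SE was 0.334 because the SED samples were 2.74% and 5.82%. The olfactory receptors Olfr901, Olfr608 and Olfr122 were higher by 0.99, 1.26 and 1.03. Slco1a1, an organic anion transporter, had the largest mean difference of the named genes on the higher side, 1.76 (SE 0.601), and it rests on a single sample. It read 19.6% in AX+ME replicate 2 and between 2.00% and 3.93% in the 3 other samples of these groups.

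The 68 transcripts were dim. All 68 lay in the dimmer part of the tested genes, below the median, and 63 lay in the dimmest of 4 brightness classes of equal size. Of the 68, 32 had a symbol, 9 were olfactory receptors and 2 vomeronasal receptors, and 16 were probes for long intergenic RNAs. Of all 25307 tested, 60.8% had a symbol, 0.609% were olfactory receptors, 0.170% vomeronasal receptors and 12.7% probes for long intergenic RNAs. AX+ME was the highest of the 4 groups in both dyes in 55 of the 68 (80.9%), against 31.2% of the 7378 genes that were higher in AX+ME in both dyes by any amount. ME was the lowest group in 26 of them (38.2%), against 26.9% of the 7378. Choosing genes by a large gap between AX+ME and ME favours both positions, so these shares are description only.

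The direction of the difference ran with brightness over the whole array. In the dimmest class, 41.0% of genes were higher and 18.6% lower in AX+ME in both dyes. In the brightest class, 11.2% were higher and 48.7% lower. The median difference went from 0.07 in the dimmest class to -0.05 in the brightest, with -0.01 over all genes. The brightest genes were held by the scanner's ceiling: 880 were saturated on all 4 arrays, and their median difference was -0.27 in Cy3 and 0.15 in Cy5. The part of this shift in the dim genes listed here was not tested. The counts of each gene list below are to be read against these shares. Over all genes 29.2% were higher and 33.6% lower in both dyes.

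**Figure D2:**
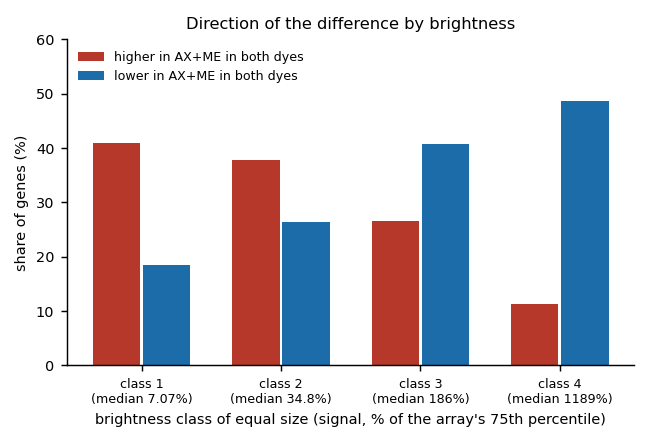
Share of tested genes higher (red) or lower (blue) in AX+ME than in ME in both dyes, by class of mean brightness over the 8 samples; the horizontal labels give each class's median signal as a percent of the array's 75th percentile. The red share goes from 41.0% in the dimmest class to 11.2% in the brightest, and the blue share from 18.6% to 48.7%.

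Only 5 transcripts were 1.5-fold lower in both dyes, 4 of them with a symbol, and ME was the highest of the 4 groups in 4 of the 5. That share was 17.4% among the 8504 genes lower in both dyes by any amount, and the fold cut favours this position too. Xlr4b, an X-linked gene of the lymphocyte-regulated family that is imprinted in mouse brain, read 15.8% and 14.4% in ME and 8.79% and 6.02% in AX+ME. The difference was -1.05 (SE 0.164, limma adjusted p = 0.401). SED, with 8.37% and 8.50%, lay near AX+ME, and AX, with 14.4% and 15.1%, lay near ME. Its close relative Xlr4a read 24.7% and 24.1% in ME and 15.9% and 15.5% in AX+ME. The family's members are near copies, so probes for one may also bind another. Prdm12, a transcription factor of nociceptive and hypothalamic neurons, read 16.7% and 21.6% in ME and 10.2% and 12.0% in AX+ME, a difference of -0.77 (SE 0.112). Both ME samples of Prdm12 lay above the 6 others, which were between 6.11% and 12.0%. AI429214 rests on ME replicate 2, which read 976% against 6.05% to 9.58% in the other samples of these groups.

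Above the median brightness, where no gene passed 1.5-fold in both dyes with 1 sign, the largest differences on the higher side included several genes known from the covering membranes of the brain. Slc22a6, an organic anion transporter, read 75.5% and 71.5% in ME and 116% and 104% in AX+ME, a difference of 0.58 (SE 0.0998). Slc6a13, a GABA and taurine transporter of the meninges, read 142% and 137% in ME and 199.6% and 205% in AX+ME. The difference of Slc6a13 was 0.53 (SE 0.0563, limma adjusted p = 0.384), with SED at 165% and 169.5% and AX at 181% and 175%. Aldh1a2, which makes retinoic acid and is a standard marker of meningeal fibroblasts, read 69.2% and 79.4% in ME and 108% and 109% in AX+ME, a difference of 0.55 (SE 0.0661). In each of these 3 genes the ME samples were the lowest of their dye and the AX+ME samples did not overlap with them.

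Gjb2, a connexin of the leptomeninges, was higher by 0.60 (SE 0.301), with 90.0% and 113% in ME and 147% and 159% in AX+ME. Its SE is wide because SED replicate 2 read 257% and SED replicate 1 read 107%. Col6a1, a chain of type VI collagen, read 190% and 203% in ME and 274% and 279.7% in AX+ME, a difference of 0.50 (SE 0.194). Sphk1, the kinase that makes sphingosine 1-phosphate, read 78.6% and 73.1% in ME and 107% and 105% in AX+ME, a difference of 0.49 (SE 0.0540). A second probe for Sphk1 gave 0.61. SED was higher than either group for Sphk1, at 121% and 110%.

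**Figure D3:**
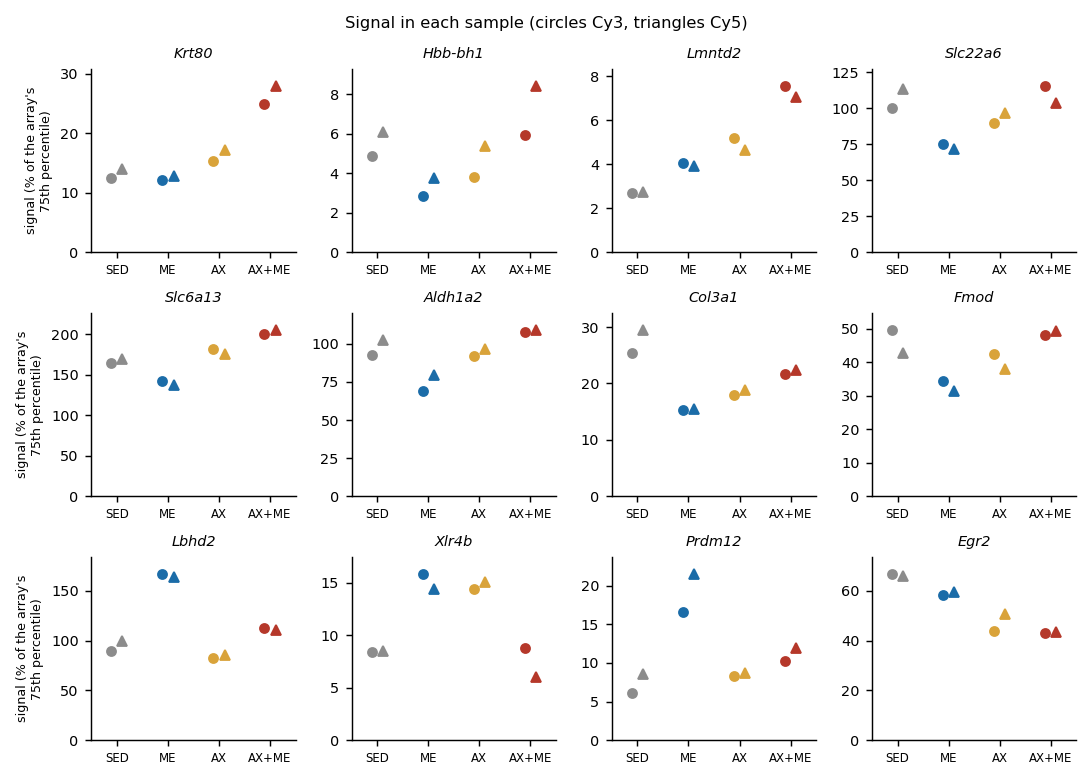
Signal of 12 named genes in each of the 8 samples, as a percent of the array's 75th percentile on linear axes from 0, by group (circles Cy3, triangles Cy5). The AX+ME points lie above the ME points in both dyes in the first 8 panels and below them in Lbhd2, Xlr4b, Prdm12 and Egr2.

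The same pattern ran through the list of meningeal fibroblast markers. Of 13 tested, 9 were higher and 1 lower in AX+ME in both dyes, and 7 had an unadjusted p under 0.05 on the higher side, against 5.05% of all genes. The list's median difference was 0.28, against -0.01 over all genes tested. Fmod, a proteoglycan that orders collagen fibrils, read 34.2% and 31.5% in ME and 48.2% and 49.2% in AX+ME. Its difference was 0.57 (SE 0.0765). Crabp2, a retinoic acid binding protein, was higher by 0.19 (SE 0.0670), with 242% and 247% in ME and 274% and 284% in AX+ME. The classical fibroblast proteoglycans Dcn and Lum did not share it, with differences of -0.11 and 0.03. The lowest member was the transcription factor Foxd1 at -0.29 (SE 0.471), with -1.13 in Cy3 and 0.54 in Cy5. ME was the lowest of the 4 groups in both dyes for 7 of the 13 genes, against 7.85% of all genes. The summed signal of the list, which its brightest genes set, differed little, at 3157% and 3128% in ME and 3170% and 3317% in AX+ME. No listed marker was at 0.

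Among collagen chains, 10 of the 11 tested were higher in both dyes and 6 had an unadjusted p under 0.05 on the higher side, with a median of 0.27. The lists share Col1a1, Col1a2 and Col3a1. Col3a1, a fibrillar chain, read 15.3% and 15.5% in ME and 21.7% and 22.3% in AX+ME, a difference of 0.52 (SE 0.0682). Col6a2, a partner of Col6a1 in type VI collagen, read 17.1% and 15.6% in ME and 23.7% and 27.0% in AX+ME. Col1a2, the second chain of type I collagen, read 212% and 207% in ME and 264% and 270.3% in AX+ME, a difference of 0.35 (SE 0.0559). Col4a1, a basement membrane chain, read 129.5% and 131% in ME and 155% and 157% in AX+ME. The exception was Col8a1, at -0.10. The summed signal of the collagen list was 849% and 848% in ME and 1077% and 1084% in AX+ME, and SED, at 989% and 1107%, lay with AX+ME rather than with ME.

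Vessel wall genes followed to a smaller degree. Of 12 tested markers of pericytes and smooth muscle, 10 were higher and 1 lower in both dyes, 4 with an unadjusted p under 0.05, and the median was 0.11. Cnn1, a calponin of smooth muscle, read 35.8% and 37.2% in ME and 48.0% and 52.6% in AX+ME, a difference of 0.46 (SE 0.0545). Acta2, smooth muscle actin, read 418% and 402% in ME and 517% and 487% in AX+ME. Myh11, the smooth muscle myosin, was higher by 0.40 (SE 0.110), and the receptor Notch3 by 0.16 (SE 0.0582). The pericyte genes Rgs5, Abcc9 and Kcnj8 gave -0.07, -0.03 and 0.06. Endothelial markers split evenly, with 4 of 10 higher, 4 lower and a median of 0.00. In whole tissue, fewer cells of a type and less RNA per cell cannot be told apart, and how much meninges or vessel entered each sample was not tested.

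**Figure D4:**
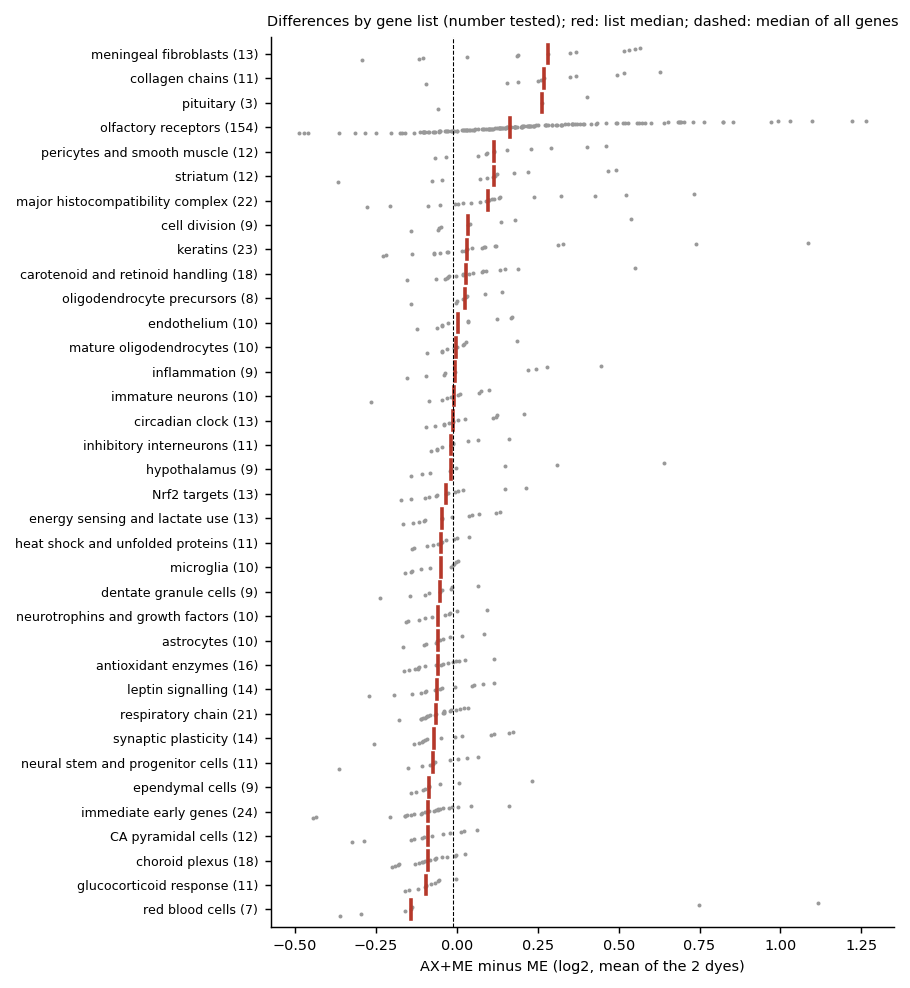
Log2 difference between AX+ME and ME (mean of both dyes) for the tested members of 36 gene lists, 1 grey point per gene, ordered by list median (red); the dashed line is the median over all genes tested, -0.01. Meningeal fibroblast markers (0.28) and collagen chains (0.27) have the highest medians, and red cell genes (-0.14) and glucocorticoid response genes (-0.10) the lowest. From array column 70 on, where fewer red cell genes are tested, their median was 0.75.

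Among genes with a symbol well above background in 1 group only, the largest bound on the difference was that of a pituitary hormone gene. Prl, prolactin of lactotroph cells, was well above background on both AX+ME arrays and on neither array of ME. It read 1.06% and 1.73% in ME and 9.16% and 8.94% in AX+ME, at least 5.18-fold higher. A bound of this kind sets the bright group against the higher of the dim probe's own signal and the lowest signal that counts as well above background. SED, at 8.92% and 9.52%, and AX, at 9.36% and 10.9%, were like AX+ME, so that ME alone stood apart. Gh, growth hormone of somatotrophs, was well above background on 1 of the ME arrays and both AX+ME arrays, with 1.65% and 1.90% in ME and 8.88% and 8.15% in AX+ME. Cga, the subunit shared by the glycoprotein hormones, read 0.500% in both ME samples, the floor set on the scale, and 2.09% and 2.88% in AX+ME, at least 1.40-fold higher.

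Of the 12 pituitary genes, only 3 entered the test. Pomc, the precursor of corticotropin and of hypothalamic melanocortins, read 65.8% and 66.0% in ME and 88.2% and 86.2% in AX+ME, a difference of 0.40 (SE 0.0590, limma adjusted p = 0.401). Lhb, the luteinizing hormone subunit, read 15.3% and 16.4% in ME and 18.4% and 19.5% in AX+ME. Tshb, Fshb, Pitx1 and Tbx19 were not well above background on any of the 4 arrays, and Pou1f1, the transcription factor of lactotrophs and somatotrophs, was well above on 1 array of each group. The summed signal of the list was 95.9% and 97.9% in ME, 138% and 141% in AX+ME, 183% and 183% in SED and 144% and 145% in AX. Whether pieces of pituitary entered samples in unequal amounts was not tested.

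**Figure D5:**
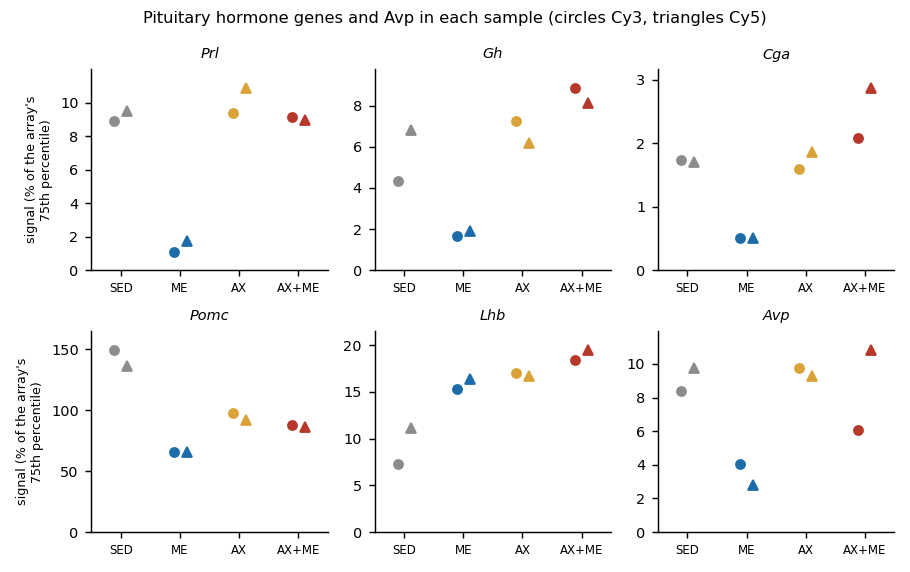
Signal of 5 pituitary hormone genes and of Avp, made in the hypothalamus, in each of the 8 samples, as a percent of the array's 75th percentile on linear axes from 0 (circles Cy3, triangles Cy5). For Prl, Gh, Cga, Pomc and Avp both ME points are the lowest of the 4 groups. For Lhb the SED points are the lowest, and its probe lies in column 64, within the dim area of the SED arrays. The ME points of Lhb lie below those of AX and AX+ME in both dyes.

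The promoters of Prl and Cga are shown because these hormone genes were well above background on both AX+ME arrays and neither ME array. POU1F1, also called Pit-1, binds AT-rich sites with the core TATNCAT in promoters of lactotroph and somatotroph genes. The 250 bases before the start site were searched on both strands, from RefSeq on GRCm38.p6, plus strand for both genes, with matches in capitals. They span chr13:27057320-27057569 for Prl and chr4:34893529-34893778 for Cga.
Prl: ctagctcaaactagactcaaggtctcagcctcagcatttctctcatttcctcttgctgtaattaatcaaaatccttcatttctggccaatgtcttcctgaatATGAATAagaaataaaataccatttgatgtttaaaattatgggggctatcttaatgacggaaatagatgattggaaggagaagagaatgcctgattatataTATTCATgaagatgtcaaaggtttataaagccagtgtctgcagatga
Cga: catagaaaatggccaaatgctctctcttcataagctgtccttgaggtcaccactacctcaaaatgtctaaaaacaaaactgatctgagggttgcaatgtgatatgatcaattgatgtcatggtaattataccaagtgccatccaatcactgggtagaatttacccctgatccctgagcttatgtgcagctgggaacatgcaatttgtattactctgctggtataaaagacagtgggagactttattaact
The Prl window holds 2 matches, beginning 148 and 47 bases before the start, and the Cga and Pomc windows hold 0. Of 32851 promoter windows of this length, 7.92% hold at least 1 match. A match is a description of letters and not evidence of binding, and Gh was not in the table used here.

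Some hypothalamic peptides were higher too. Oxt, oxytocin, read 10.2% and 12.2% in ME and 17.0% and 17.8% in AX+ME, a difference of 0.64 (SE 0.0843). Avp, vasopressin, was well above background on 1 ME array and both AX+ME arrays, with 4.03% and 2.82% in ME and 6.06% and 10.9% in AX+ME. Trh, thyrotropin-releasing hormone, read 11.3% and 10.3% in ME and 13.5% and 13.2% in AX+ME, while SED read 36.6% and 30.1%. Cartpt and Ghrh gave -0.08 and 0.15. Over the 9 hypothalamic genes tested, 3 were higher and 1 lower in both dyes and the median was -0.02, close to that of all genes.

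Striatal markers leaned the same way, with 9 of 12 higher and 3 lower in both dyes and a median of 0.11. Adora2a, an adenosine receptor of striatal projection neurons, read 15.6% and 14.02% in ME and 21.6% and 19.4% in AX+ME, a difference of 0.47 (SE 0.0586). Drd1, a dopamine receptor, was higher by 0.18 (SE 0.0565). Isl1 gave -0.37, with 3.39% and 3.71% in ME and 2.74% and 2.76% in AX+ME. The summed signal of the striatal list was 4394% and 4312% in ME and 4510% and 4501% in AX+ME.

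Other genes were measured in 1 group only. With a symbol, 22 were well above background on both AX+ME arrays and neither ME array, and 9 the other way round. After Prl, the largest bounds on the AX+ME side were Olfr1211 (at least 2.41-fold), Ugt2b37, a glucuronosyltransferase (at least 2.06-fold), Cpa4, a carboxypeptidase (at least 2.00-fold), and Gm44 (at least 1.80-fold). Cpa4 rests on AX+ME replicate 2, at 7.67% against 1.64% in replicate 1. On the ME side the largest were Prl3a1 (at least 3.86-fold), Slc28a2b (at least 3.31-fold), Cfc1 (at least 2.32-fold), S100a14 (at least 2.02-fold) and Mael (at least 2.02-fold). The first 4 of these rest on ME replicate 2, where Slc28a2b read 20.4% against 1.84% in replicate 1. Mael, a gene of the germ line piRNA pathway, read 3.94% and 3.52% in ME and 0.500% and 0.597% in AX+ME.

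In the brightest class more genes were lower (48.7%) than higher (11.2%) in both dyes. Of the largest differences above the median brightness, most on the lower side were smaller than those on the higher side. Lbhd2 read 167% and 164% in ME and 113% and 110% in AX+ME, a difference of -0.57 (SE 0.0668, limma adjusted p = 0.401). The 6 samples outside ME lay between 82.8% and 113%, so ME stood alone on the high side. Sln, sarcolipin, an inhibitor of the calcium pump of the sarcoplasmic reticulum, read 88.4% and 91.4% in ME and 60.1% and 64.9% in AX+ME, and was lower by a like amount on astaxanthin in sedentary mice (-0.49). Dlk1, a Notch pathway ligand, read 117% and 128% in ME and 86.5% and 103% in AX+ME. Ccdc85a and 1700022A21Rik gave -0.36 and -0.35.

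Markers of CA pyramidal cells were mostly lower, 8 of 12 in both dyes with 1 higher and a median of -0.09. Cpne4, a calcium-dependent membrane-binding protein, read 1297% and 1380% in ME and 1022% and 1117% in AX+ME, a difference of -0.32 (SE 0.0506). Spink8, whose values stand above, differed by -0.29 (SE 0.0632). Grik4, a kainate receptor subunit, and Pou3f1 gave -0.13 and -0.10. Among bright genes in general 48.7% were lower in both dyes, so these counts are to be read against that share. Dentate granule markers had a median of -0.05, with Il1rap at -0.24 (SE 0.0839) and C1ql2 at 0.07 (SE 0.0785). A second probe for Il1rap gave 0.16, so its sign depends on the probe.

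Immediate early genes, which neurons switch on within minutes of activity, were lower in both dyes in 15 of 24 and higher in 2, with a median of -0.09. Egr2, a zinc finger factor, read 58.2% and 59.4% in ME and 43.1% and 43.4% in AX+ME, a difference of -0.44 (SE 0.0767, limma adjusted p = 0.401). It was lower on astaxanthin in sedentary mice as well, with 66.8% and 66.0% in SED and 43.7% and 50.8% in AX. Gadd45b, which takes part in activity-driven demethylation of DNA, read 183% and 176% in ME and 155% and 156% in AX+ME, a difference of -0.21 (SE 0.0521). Jun gave -0.16 (SE 0.0670), Fos -0.14, Arc -0.11 and Npas4 0.00. Nptx2, a pentraxin of excitatory synapses, was higher by 0.16 (SE 0.0710).

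Leptin itself was near background. Lep read 1.55% and 2.11% in ME and 2.49% and 2.62% in AX+ME and was well above background on 1 of the ME arrays and both AX+ME arrays, so it was not tested. The SED samples read 1.21% and 1.21% and the AX samples 1.64% and 1.70%. Lepr, the leptin receptor, read 339% and 268% in ME and 271% and 230% in AX+ME by its brightest probe, a difference of -0.27 (SE 0.0643, limma adjusted p = 0.521). Other probes for Lepr gave between -0.33 and 0.54, so the sign depends on the probe. Among 14 genes of leptin signalling, 4 were higher and 7 lower in both dyes and the median was -0.06. Socs3, the feedback inhibitor that leptin induces, gave 0.11 (SE 0.0519), Stat5a -0.14 (SE 0.0674) and Irs2, an insulin receptor substrate, -0.20 (SE 0.0651), with 1522% and 1435% in ME and 1264% and 1320% in AX+ME.

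Genes of neurogenesis and growth differed little. In the list of neural stem and progenitor cells, 1 of 11 was higher and 6 lower in both dyes (median -0.07). Eomes, a factor of intermediate progenitors, gave -0.36 (SE 0.168) and Hes5, a Notch target of stem cells, -0.07 (SE 0.0680). Prom1 gave -0.08. Immature neuron genes had a median of -0.01, with Igfbpl1 at -0.26 (SE 0.0669), Tubb3 at 0.10, Sox4 at 0.07 and Calb2 at -0.05. A second probe for Sox4 gave -0.10. In the cell division list 4 of 9 were higher and 3 lower; Ccnb1, a mitotic cyclin, gave 0.54 (SE 0.190) at a dim 4.58% and 3.14% in ME and 7.76% and 3.91% in AX+ME, so its groups overlap. Ccna2 and Mcm5 gave 0.18 and 0.14, and Pcna, the replication clamp, -0.14 (SE 0.0620).

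Bdnf, the neurotrophin most tied to running, read 301% and 327% in ME and 266% and 297% in AX+ME, a difference of -0.16 (SE 0.0596) and the groups did not overlap. Kdr, a VEGF receptor, gave -0.15 (SE 0.0492), Ntf3 -0.10 and Vegfa 0.09. A second probe for Vegfa gave 0.44. Over the 10 growth factor genes tested, 1 was higher and 5 lower in both dyes. In synaptic plasticity genes (3 of 14 higher, 5 lower), Grin2a, an NMDA receptor subunit, read 265% and 254% in ME and 223% and 212% in AX+ME, a difference of -0.26 (SE 0.0552). Its second probe gave -0.07. The AMPA receptor subunits Gria1 and Gria2 gave -0.12 and -0.09, and the scaffold Shank3 gave 0.17 (SE 0.115).

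Carotenoids are often studied for the antioxidant response. Of 16 antioxidant enzymes, 2 were higher (12.5%) and 9 lower (56.25%) in both dyes (median -0.06). In the brightest class of genes 11.2% were higher and 48.7% lower (median -0.05), so the list lay near that share. The members Txn1, Msra, Prdx1 and Sod2 are all in that class. Txn1, thioredoxin, read 1476% and 1568% in ME and 1336% and 1381% in AX+ME, a difference of -0.16 (SE 0.0580). Msra, Prdx1 and Sod2 gave -0.15, -0.12 and -0.10. Among 13 targets and partners of the factor Nrf2, 2 were higher and 6 lower. Slc7a11, the cystine importer, gave 0.21 (SE 0.0734), and Hmox1 and Nqo1, textbook targets, gave 0.02 and 0.00. Gclm, Keap1 and Me1 gave -0.17, -0.14 and -0.10.

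Genes that take up and process carotenoids and retinoids were mixed, with 8 of 18 higher and 3 lower in both dyes and a median of 0.03. The 2 with an unadjusted p under 0.05 were Aldh1a2 and Crabp2, both also in the meningeal list. Stra6, a receptor for retinol binding protein, gave 0.15 (SE 0.0880) and Aldh1a3 -0.15 (SE 0.0850). Scarb1, a receptor that takes up carotenoids, and Bco2, which cleaves them, gave 0.04 and -0.03.

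Of 22 genes of the major histocompatibility complex, 15 were higher and 2 lower in both dyes (median 0.10). H2-Q1, a class I gene, read 6.30% and 7.57% in ME and 10.9% and 12.1% in AX+ME, a difference of 0.73 (SE 0.0621, limma adjusted p = 0.271). The class II genes H2-Ab1 and H2-Aa were higher by 0.43 (SE 0.0930) and 0.52 (SE 0.156), and H2-T24 by 0.24 (SE 0.103). Class I genes are alike in sequence, so a probe for H2-Q1 may bind others. Ccl5, a chemokine, read 6.51% and 5.92% in ME and 8.30% and 8.61% in AX+ME, and Lcn2, an acute phase protein, 36.5% and 38.9% in ME and 43.1% and 44.5% in AX+ME. Nfkbia and Ccl4 gave -0.15 and -0.10, and the inflammation list had a median of -0.01. Tnf was not well above background on any of these arrays.

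Olfactory receptors are not thought of as hippocampal genes, and 154 of 1070 on the array were tested. Of these, 90 were higher (58.4%) and 19 lower in both dyes, with a median of 0.17. In the dimmest class of all genes, 41.0% were higher. Olfr166 read 8.15% and 7.72% in ME and 12.3% and 14.1% in AX+ME, and Olfr1339 3.61% and 4.59% in ME and 6.45% and 6.63% in AX+ME. Olfr74 was higher by 0.43 (SE 0.0671). AX+ME was the highest of the 4 groups in both dyes for 54 of the 154, against 9.09% of all genes. That 9.09% covers genes of every brightness, and the share among dim genes alone was not worked out. The filter asked for signal on the ME and AX+ME arrays only, which can favour these groups as the highest among dim genes. Keratins other than Krt80 were not alike: Krt6b gave 0.74 (SE 0.109), with 3.53% and 4.69% in ME and 6.82% and 6.76% in AX+ME, while Krt23 and Krt28 gave -0.22 and -0.23. Over 23 keratins 8 were higher and 5 lower.

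Whether the diet difference in runners was itself unlike that in sedentary mice was tested as the difference (AX+ME minus ME) minus (AX minus SED), which uses all 8 samples. In limma 207 of 25307 genes passed (0.818%), 35 with the larger value in runners (0.138%) and 172 with the smaller (0.68%). All 172 lay in array columns below 70 and had SED as the lowest of the 4 groups in both dyes, the area of dim spots on the SED arrays. Of the 35, 8 lay there, and SED was the highest group in 23. Without any 1 of the ME or AX+ME samples, or with probes from column 70 on, 0 genes passed. Among the 35, Col3a1 read 25.5% and 29.5% in SED and 17.9% and 18.9% in AX, a difference of -0.58 on astaxanthin in sedentary mice, against 0.52 in runners. The difference of those differences was 1.09 (SE 0.0965, limma adjusted p = 0.0329).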

How the data were processed

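Hippocampal total RNA was hybridised to SurePrint G3 mouse oligonucleotide arrays. The authors' deposited scanner files hold spot intensity values. They come, per the submitters' processing notes, from the scanner software Agilent Feature Extraction, version 11.0.1.1. The intensities are background-subtracted and detrended within the array, per the file headers, whose probe design refers to mouse build mm9. The deposited value table lay within 0.5 of these intensities on all 8 arrays, so it is linear, uncentred and runs the same way. Its medians were 139 and 202 in ME and 177 and 193 in AX+ME.

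The processed signal of the sample's own dye was used. The 3671 control spots and spots marked as outliers were left out, saturated ones kept. Spots of a probe were averaged (55681 probes, of which 26582 took a symbol from the files or, by accession, from RefSeq genes), divided by the array's 75th percentile, set to a floor of 0.005 and put on a log2 scale. Probes well above background on all 4 arrays of ME and AX+ME were kept (34300), and the brightest probe stands for a gene. All 8 samples entered 1 limma 3.58.1 fit in R 4.3.3 with terms for group and dye (3 residual and 1.76 prior degrees of freedom). P-values are two-sided and Benjamini-Hochberg adjusted over all 25307 genes and transcripts, with a threshold of 0.05. The labels tie replicate number to dye, so the dye term is the replicate block. The scripts were tested on simulated data.

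Named genes were the 10 on each side with the largest smaller within-dye difference past 1.5-fold, the 6 on each side above the median brightness, the 4 with the smallest p past 1.5-fold, the 5 with the largest bounds, Lep, Lepr, and up to 4 members per described list with the smallest p. Hbb-bt, Avp, and list members given as exceptions or textbook examples were added after their values were seen. The members and lists were chosen with earlier results of these data known. Alternatives covered scaling, background, filters, probes, saturated spots, array columns, samples fitted, the block and the fold. Normexp was run on the median signal with an offset of 50, chosen after seeing the data, in place of the planned mean signal, which was not used here. Some list members are not reported here. The number of arrays limits the precision.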

Additional observations from a re-analysis of the deposited data

Results flagged for a closer look

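For 9 named genes the diet difference in runners, minus that in sedentary mice, passed an adjusted p of 0.05 in limma. Trh had the largest value, 2.23 (SE 0.122, adjusted p = 0.0272): the diet difference was 0.31 in runners and -1.92 in sedentary mice, where both SED samples were the highest of the 8. Hbb-bh1 gave 1.39 (adjusted p = 0.0279), Col3a1 1.09 (0.0329), H2-Q1 1.06 (0.0329) and Pomc 0.999 (0.0329). Sphk1 gave 0.897 (0.0329), Drd1 0.830 (0.0358) and Krt80 0.786 (0.0356). In Krt80 the diet difference was positive in both settings, 1.09 in runners and 0.30 in sedentary mice, while in the 7 genes named before it the sedentary difference was negative. Sox2, a stem cell factor, gave -1.24 (0.0329), and its probe lies in column 49, within the dim area of the SED arrays, where SED read 62.2% and 53.6% and the other samples 124% to 143%. Fitted on probes from column 70 on, the adjusted p was 0.0768 for each of the other 8 genes, and no gene passed without any 1 of the ME or AX+ME samples.

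The dye that held no sample also gave signal: 707 and 573 spots were well above background in ME and 907 and 539 in AX+ME, between 0.909% and 1.53% of spots.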

How the results depend on the processing

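Over 16 other settings, limma called 0 genes in 13. It called 1 with no filter on dim probes (Gm15023), 5 among probes from array column 70 on (Krt80, Hbb-bh1 and 3 unnamed transcripts) and 1 without ME replicate 1 (AI429214); the range over samples left out was 0 to 1. Without the replicate block it called 0. The 68 genes 1.5-fold higher in both dyes became 37 with quantile normalization, 5 with normexp, 248 with a filter on either group, 623 with no filter and 4 at 2-fold. The 5 lower became 18, 1, 31, 161 and 0 in the same order, and the 13 in opposite ways became 2 with normexp, 34, 334 and 1 for the last 3. No sample could be left out of these counts, which need both dyes. The 207 genes whose diet difference was unlike in runners and sedentary mice became 547 with normexp, 166 without the replicate block, and 0 with no filter, from column 70 on and with any ME or AX+ME sample left out (range 0 to 0). The cause was not tested beyond what fewer genes or samples imply.

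Of 112 named genes, 5 changed sign in 7 of 1763 values. Lepr, -0.27 as reported, gave 0.25 with the median over its probes and 0.54 from column 70 on. Sox4 gave -0.015 with the median over probes. With a sample left out, Calb2 ranged from -0.24 to 0.15, Keap1 from -0.30 to 0.021 and Lct from -0.31 to 0.018. The medians of meningeal fibroblast markers (0.19 to 0.53), collagen chains (0.25 to 0.32) and pericyte and smooth muscle markers (0.10 to 0.28) stayed above 0 in all 16 settings. Those of immediate early genes (-0.10 to -0.06) stayed below it. Other lists kept their sign in all 16 too. Among them were pituitary (0.15 to 0.55) and striatum above 0, and choroid plexus (-0.13 to -0.06) and CA pyramidal cells (-0.12 to -0.04) below. That of red cell genes (-0.22 to 0.75) turned its sign from column 70 on, where fewer of them are tested. Dim genes limit the precision, with 2 arrays a group.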

Other observations

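Other cell types and pathways differed little between AX+ME and ME. Among 10 microglial genes 0 were higher and 5 lower in both dyes (median -0.05), with the receptor P2ry12 at -0.16. Astrocyte genes had a median of -0.06 (1 of 10 higher, 7 lower), mature oligodendrocyte genes 0.00 (2 and 2 of 10), oligodendrocyte precursor genes 0.02 (2 and 1 of 8) and interneuron genes -0.02 (3 and 4 of 11). Ependymal genes were lower in 6 of 9 (median -0.09), while Foxj1, the master factor of motile cilia, gave 0.23. Choroid plexus genes were lower in both dyes in 12 of 18 and higher in 1 (median -0.09). Kcne2, a potassium channel subunit, gave -0.19 (SE 0.0565), Steap1 -0.18, Ecrg4 -0.20 and Folr1, a folate receptor, -0.12. A second probe for Folr1 gave 0.01. AX+ME was the lowest of the 4 groups in 11 of these 18, against 9.77% of all genes. Of the 8504 genes lower in both dyes, 29.1% had AX+ME as the lowest group. The 9.77% covers genes of every brightness, and the share among bright genes alone was not worked out. In the brightest class 48.7% of genes were lower in both dyes.

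Glucocorticoid response genes were lower in both dyes in 7 of 11 and higher in 0 (median -0.10), with Pdk4 at -0.15 and Fkbp5 at -0.16. The respiratory chain (1 of 21 higher, 5 lower, median -0.07) differed in sign between dyes in 15 genes. Its median was -0.15 in Cy3 and 0.10 in Cy5. Genes saturated on all 4 arrays had medians of the same signs, -0.27 and 0.15. How many of this list were saturated was not worked out. Clock genes (median -0.01), heat shock genes (-0.05) and genes of energy sensing and lactate use (-0.04) had 4, 0 and 4 members higher in both dyes and 2, 3 and 6 lower. The lactate carrier Slc16a1 gave 0.13 and Ppargc1a, a coactivator of mitochondrial genes, -0.17.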
